A study of Rattus norvegicus with 14 samples.

Results

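The step from embryonic day 14 (E14) to E16 in the fetal rat testis was read from 4 of the 14 arrays in the series, the 2 labelled E16 testis and the 2 labelled E14 testis. They were chosen by their labels alone and compared over 15866 probe sets, each made of several short probes that together read 1 transcript. The series held 7 groups of 2 arrays: E13, E14 and E16 gonads of both sexes, and testes taken at E13 that spent 3 days in culture. Each array carried RNA from its own pool of 20 to 40 gonads of 1 sex and age. Fresh gonads of E14 and E16 received no treatment named in the labels, which give no strain, allele or reporter and do not say whether the adjoining mesonephros was removed. Because a pool mixes all cells of the gonad, and because only 2 pools stood for each age, precision is limited by how few arrays there were.

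In the fetal testis, Sertoli cells form first, enclose the germ cells in cords and secrete anti-Müllerian hormone. Fetal Leydig cells then appear between the cords and make androgen from cholesterol, which virilises the male fetus. Cholesterol is taken up through SCARB1, carried into mitochondria by STAR and cut by CYP11A1, which receives its electrons through ferredoxin (FDX1), and HSD3B and CYP17A1 then turn the product into androgen precursors, while the peptide hormone INSL3 from the same cells acts in the descent of the testis.

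Signals were deposited as linear intensities. Differences are given as log2 of (intensity + 16), with the E16 mean minus the E14 mean, so that they understate the change of dim probe sets. Testing was done with limma on all 14 arrays, and a probe set passed when its adjusted p over all 15866 probe sets was under 0.05. The labels were first checked against genes that mark sex. Sry, the switch on the Y chromosome that makes a gonad a testis, read 45.9 and 37.1 in E14 testis and 28.2 and 18.5 in E16 testis. Sry is given for testis alone, so these values do not show whether it separated the sexes. Amh, the gene of anti-Müllerian hormone, read 759.6 and 476.7 at E14 and 1092.8 and 813.6 at E16, against 9.6 to 29.2 in E14 and E16 ovary. All 4 testis arrays thus carried the Sertoli cell marker far above the ovary arrays. Xist, an RNA made in female cells from the silenced X chromosome, read 1.9 in E14 testis replicate 2 and 3.3 and 1.5 in E16 testis, but 269.2 in the array labelled E14 testis replicate 1. That array therefore went against its label in 1 gene and with it in Amh. The count of probe sets that passed and many, but not all, of the results that rest on this array are given with and without it.

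Between E14 and E16, 19 probe sets rose in testis (0.12% of those tested) and 0 fell (0%). At an unadjusted p under 0.05 the counts were 521 higher (3.28%) and 297 lower (1.87%) and 793 probe sets are that share of all tested. The 2 arrays of each age did not overlap for 3127 probe sets that were higher at E16 (19.7%) and for 2393 that were lower (15.1%). The median difference over all probe sets was 0.011. Of the 19 probe sets, 18 had a single gene symbol and stood for 17 genes. The unnamed one read 2.2 and 1.3 at E14 and 20.2 and 29.6 at E16. In these pooled samples a change in the number of cells of a type and a change in the RNA per cell cannot be told apart.

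The array whose Xist value went against its label changed this count. Without E14 testis replicate 1, 12 probe sets passed, of which 9 were among the 19: those of Cyp17a1, Cpa1, Hsd3b1, Insl3, Cyp11a1, Fdx1 and Nppc and the dimmer probe sets of Star and Scarb1. Without E14 testis replicate 2 or without E16 testis replicate 2 the count was 7, and without E16 testis replicate 1 it was 22. A fit on the 4 arrays alone, with 2 residual degrees of freedom, passed 1 probe set, that of Cyp17a1. Xist also went against the label in replicate 1 of E13 testis and of cultured testis and in replicate 2 of E16 ovary. Without these 3 arrays and E14 testis replicate 1, which were picked once the data had been seen, 4 probe sets passed, those of Cyp17a1, Cpa1, Hsd3b1 and Cyp11a1. All 19 probe sets kept their direction in each of these fits. This was fixed beforehand, since both E16 arrays lay above both E14 arrays for each of the 19. Further on, 10 fits each left out 1 array of E13, E14 or E16 testis or of E14 or E16 ovary. Only the 4 without an E14 or E16 testis array could change the difference itself.

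Of the 17 genes that rose, 7 belong to steroid synthesis or to the fetal Leydig cell, namely Scarb1, Star, Cyp11a1, Fdx1, Hsd3b1, Cyp17a1 and Insl3. Of 17 measured genes in a list of 21 for this cell type, 6 rose by their brightest probe set, 0 fell and 11 did not pass. Of all probe sets 0.12% rose and 0% fell. The median difference of the 17 was 0.97 beside 0.011 for all probe sets. Scarb1 passed by its second, dimmer probe set. With 1 array left out, the count of 6 became 5 without E14 testis replicate 1, 3 without E14 testis replicate 2, 7 without E16 testis replicate 1 and 4 without E16 testis replicate 2. The list was drawn up with results of these arrays known.

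The promoters of the steroid and Leydig cell genes are shown because these genes rose together and share a known regulator, the nuclear receptor NR5A1. RefSeq's promoter table for build GRCr8 held 4 of the 7, namely Cyp11a1, Fdx1, Insl3 and Hsd3b1. Each run is the 250 bases before the gene's start, 5′ to 3′ on the gene's own strand, and capitals mark AGGTCA, the half-site of many nuclear receptors, or its reverse complement. The windows lie at chr8:67318415-67318664 (plus strand) for Cyp11a1, chr8:61183646-61183895 (minus strand) for Fdx1, chr16:18432939-18433188 (plus strand) for Insl3 and chr2:188864695-188864944 (minus strand) for Hsd3b1.
Cyp11a1: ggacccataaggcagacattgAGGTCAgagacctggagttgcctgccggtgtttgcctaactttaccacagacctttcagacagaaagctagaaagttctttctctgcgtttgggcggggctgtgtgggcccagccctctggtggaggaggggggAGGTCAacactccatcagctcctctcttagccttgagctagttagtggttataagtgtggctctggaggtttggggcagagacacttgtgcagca
Fdx1: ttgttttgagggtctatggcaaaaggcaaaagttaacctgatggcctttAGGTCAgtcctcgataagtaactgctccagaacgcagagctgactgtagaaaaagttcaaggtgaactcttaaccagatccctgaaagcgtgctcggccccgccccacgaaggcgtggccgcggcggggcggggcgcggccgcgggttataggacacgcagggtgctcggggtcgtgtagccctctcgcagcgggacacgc
Insl3: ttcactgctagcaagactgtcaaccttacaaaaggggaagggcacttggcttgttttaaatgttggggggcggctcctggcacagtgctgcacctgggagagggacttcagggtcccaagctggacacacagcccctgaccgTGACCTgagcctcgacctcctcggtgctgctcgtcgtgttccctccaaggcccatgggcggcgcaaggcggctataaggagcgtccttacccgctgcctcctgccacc
Hsd3b1: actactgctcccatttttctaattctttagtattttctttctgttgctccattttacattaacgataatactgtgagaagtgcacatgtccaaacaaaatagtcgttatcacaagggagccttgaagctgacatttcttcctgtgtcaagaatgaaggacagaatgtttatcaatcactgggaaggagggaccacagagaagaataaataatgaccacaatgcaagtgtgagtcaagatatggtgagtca
The half-site, chosen after the data were seen, stood in 3 of these 4 windows: at 229 and 95 bases before the start of Cyp11a1, at 201 before that of Fdx1 and at 108 before that of Insl3, there on the other strand. Over the 13 of the 17 genes that rose and had a window in the table, it stood in 3, and over all 33469 windows of the table in 4707 (14.1%). The motif CAAGGNCA, which NR5A1 binds and which was searched on both strands, stood in 0 of the 13 and in 1869 of all windows (5.58%). A match describes the letters and is not a bound site, and no match says only that these letters are missing from this window.

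The cholesterol receptor gene Scarb1, on its brightest probe set, read 41.3 and 40.1 at E14 and 129.8 and 321.9 at E16, a difference of 1.97 ± 0.34 (SE) that did not pass (adjusted p = 0.0793). Its dimmer probe set read 40.2 and 16.5 at E14 and 163.6 and 341.5 at E16, and rose by 2.57 ± 0.35 (adjusted p = 0.0177). On both probe sets the E16 arrays lay above the E14 arrays, with replicate 2 the higher. The dimmer probe set passed without E14 testis replicate 1 (adjusted p = 0.0384) but not without E14 testis replicate 2 (0.178) or E16 testis replicate 2 (0.207).

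Star, whose product moves cholesterol to the inner mitochondrial membrane, read 28.1 and 19.5 at E14 and 183.3 and 365.3 at E16. It rose by 2.80 ± 0.35 (adjusted p = 0.0111), and by 3.21 on its second probe set (adjusted p = 0.00172), which read 15.7 and 5.2 and then 173.5 and 288.0. Both probe sets separated the ages without overlap. The first no longer passed without E14 testis replicate 1 (adjusted p = 0.0646), E14 testis replicate 2 (0.141) or E16 testis replicate 2 (0.135), whereas the second passed without E14 testis replicate 1 (adjusted p = 0.00982) and in the other 9 such fits.

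Cyp11a1, which cuts the cholesterol side chain, read 45.0 and 39.8 at E14 and 615.1 and 1051.3 at E16. The rise of 3.81 ± 0.22 had the smallest adjusted p of the comparison, 3.62e-05, and held in 10 of 10 fits with 1 array left out. The 2 E14 arrays lay close together and far below either E16 array. Fdx1, the electron carrier to this enzyme, read 214.2 and 208.4 at E14 and 766.3 and 1240.1 at E16, and rose by 2.12 ± 0.23 (adjusted p = 0.00283, and 0.0529 without E14 testis replicate 2). Its dimmer probe set, which read 1.2 and 3.4 and then 13 and 35.9, differed by 1.09 and did not pass (adjusted p = 0.273). On both probe sets of Fdx1 the E16 arrays lay above the E14 arrays.

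Hsd3b1, which oxidises pregnenolone to progesterone, read 19.2 and 95.6 at E14 and 1432.2 and 2202.5 at E16. It rose by 4.84 ± 0.42 (adjusted p = 0.000606). The E14 arrays differed from each other, with replicate 2 the higher, yet both lay far below E16. Its family holds near-identical copies, which the probe set may not tell apart. Cyp17a1, which makes androgen precursors, read 4.3 and 3.9 at E14 and 1231.7 and 2565.7 at E16. With 6.48 ± 0.49 (adjusted p = 0.00018) it had the largest difference of the probe sets that passed. At E14 both arrays read near the bottom of the scale, so the size depends on the added 16. Insl3 read 39.7 and 13.2 at E14 and 540.0 and 1658.9 at E16, and rose by 4.58 ± 0.57 (adjusted p = 0.0111). Its E16 arrays differed 3.07-fold from each other, and the gene did not pass without E16 testis replicate 2 (adjusted p = 0.115) or without E14 testis replicate 2 (0.139).

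**Figure D1:**
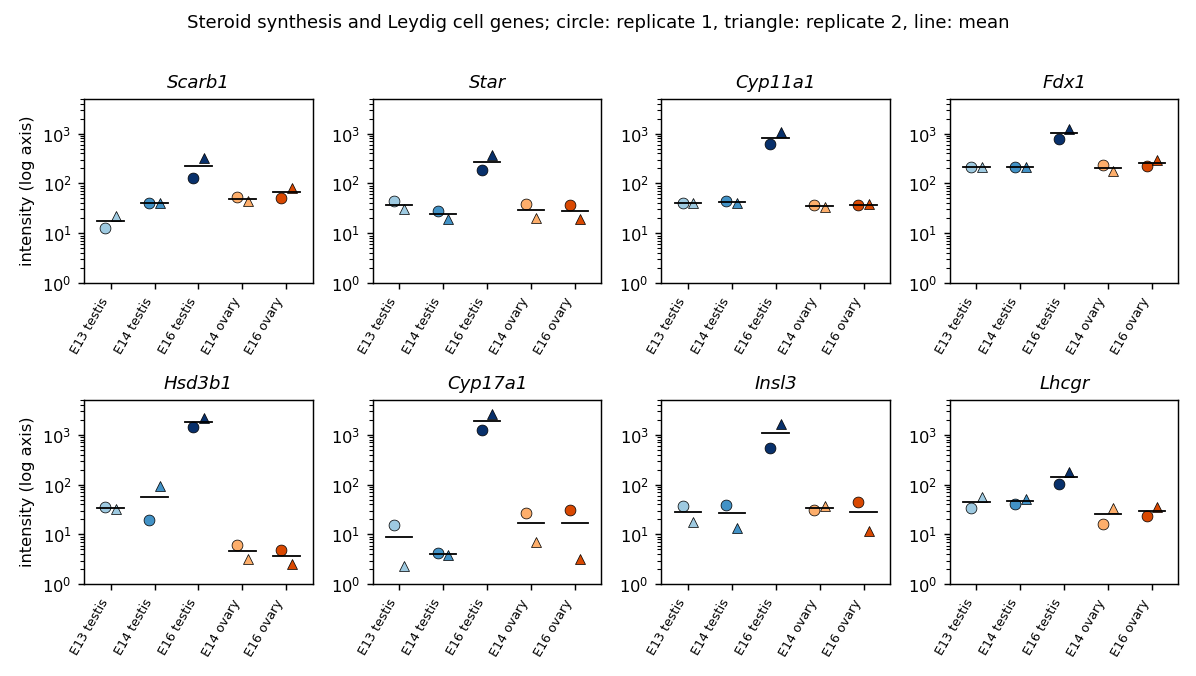
Intensities of 8 steroid synthesis and Leydig cell genes on a log axis, 1 point per array (circle, replicate 1; triangle, replicate 2) with the group mean as a line, in fresh testis and ovary by age; each gene is shown by its brightest probe set. In all 8 panels both E16 testis arrays lie above both E14 testis arrays, and E16 replicate 2 is the higher of its pair, for example 2565.7 against 1231.7 for Cyp17a1.

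Other members of the list stayed short of the threshold. Lhcgr, the receptor for luteinising hormone, read 41.2 and 51.7 at E14 and 104.3 and 181.3 at E16, a difference of 1.31 (adjusted p = 0.269). Hsd17b3, which makes testosterone, read 54.8 and 87.9 and then 158.0 and 146.1, a difference of 0.97 (adjusted p = 0.714). In both genes the E16 arrays lay above the E14 arrays. Nr5a1, which encodes the regulator of many steroid enzymes, read 29.4 and 22.5 and then 33.6 and 30.1, a difference of 0.19 ± 0.55. The mitochondrial protein gene Tspo differed by 0.13, Por, the electron donor to CYP17A1, by 0.35, and Cyb5a, which aids the same enzyme, by 0.43. Genes that make or take up cholesterol formed a list of 27, of which 21 were measured. Of these 0 passed, 20 had a difference above 0, and the median was 0.20. Dhcr7, which completes cholesterol, read 156.2 and 127.1 at E14 and 218.9 and 300.5 at E16, a difference of 0.80 (adjusted p = 0.506). The 2 brightest members, Fdps and Npc2, differed by 0.25 and 0.13.

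The adrenal cortex makes steroids with several of the same enzymes, so its own markers were read beside them. Cyp21a1, a defining enzyme of adrenal steroid synthesis, read 11 and 20.1 at E14 and 10.1 and 7.6 at E16, and Cyp11b1 read 13.5 and 9.8 and then 11.9 and 15.3. The 4 measured genes of the adrenal list summed to 248 and 295 at E14 and 275 and 237 at E16, and 0 of 4 passed. Cyp21a1 and Cyp11b1 were near the bottom of the scale at both ages, and the other measured genes of the list made up most of these sums. The summed intensity of the 17 Leydig list genes was 1222 and 1242 at E14 and 5973 and 10615 at E16, and 1100 to 1209 in the 4 ovary arrays of those ages. E16 testis replicate 2 was the higher array in this sum. It was also above replicate 1 in 17 of the 19 probe sets that rose, with a median ratio of 1.69, while over all probe sets it was above in 49.9%. What set the 2 E16 pools apart was not tested.

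Cpa1 encodes carboxypeptidase A, known as a digestive enzyme of the pancreas. It read 40.2 and 21.7 at E14 and 1532.2 and 3181.8 at E16, and rose by 5.60 ± 0.39 (adjusted p = 0.000116). Only Cyp17a1 had a larger difference among the probe sets that passed, and Cpa1 likewise held in 10 of 10 such fits. E13 testis read 90.3 and 56.6, and both E14 arrays read below both E13 arrays.

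Nppc, the precursor of C-type natriuretic peptide, read 36.2 and 31.9 at E14 and 180.6 and 187.8 at E16. Its rise of 2.0 ± 0.20 (adjusted p = 0.00172) held in 10 of 10 fits with 1 array left out, and its E16 arrays read nearly the same. Jag1, a ligand of Notch receptors, read 24.5 and 26.2 at E14 and 125.6 and 109.5 at E16, and rose by 1.69 ± 0.25 (adjusted p = 0.0329). Jag1 and Vsnl1 were the 2 genes that rose in which E16 replicate 1 was the higher array. Of 11 measured Notch pathway genes Jag1 alone passed, beside 0.12% of all probe sets. The median of the 11 was 0.01 (0.18 without E14 testis replicate 1 and -0.10 without replicate 2). The receptors Notch1, Notch2 and Notch3 differed by 0.01, -0.52 and 0.08, and the target Hes1 by 0.34, with 145.7 and 117.1 at E14 and 190.7 and 151.1 at E16.

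Among extracellular matrix genes, 2 of 44 measured rose, Mgp and Ogn, and 0 fell, beside 0.12% and 0% of all probe sets. The list's median difference was 0.32, and 39 of the 44 lay above 0. The ages did not overlap for 26 of the 44 that were higher at E16 and 1 that was lower, beside 19.7% and 15.1% of all probe sets. Mgp, which encodes matrix Gla protein, an inhibitor of calcification, read 47.4 and 67.9 at E14 and 421.6 and 742.1 at E16, and rose by 2.98 ± 0.39 (adjusted p = 0.0147). Ogn, a small proteoglycan, read 69.0 and 63.5 and then 182.7 and 309.6, and rose by 1.63 ± 0.26 (adjusted p = 0.0492). Its 3 other probe sets differed by 1.03 to 1.57 and did not pass. Without E14 testis replicate 1, 0 of the 44 passed, with adjusted p = 0.153 for Mgp and 0.237 for Ogn, and the same count was 0 without E14 testis replicate 2 or E16 testis replicate 2.

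Further matrix genes were higher in both E16 arrays without passing. Decorin (Dcn) read 174.1 and 176.5 at E14 and 483.0 and 929.3 at E16, a difference of 1.84 (adjusted p = 0.118). The collagen VI genes followed with 91.0 and 95.6 and then 195.2 and 305.0 for Col6a1, a difference of 1.25. Col6a2 read 27.3 and 21.5 and then 112.6 and 103.0 on its brightest probe set, a difference of 1.62 (adjusted p = 0.872). Its dimmer probe set read 11.3 and 53.3 and then 10.8 and 22.6 (-0.44) and overlapped between the ages, so the probe sets disagree in direction. The fibrillar collagen genes Col1a1 and Col1a2 differed by 0.79 and 0.55, and Col3a1, read at 2702.4 and 3037.5 and then at 2699.5 and 3201.7, by 0.04. Matrix genes thus spanned a range from Mgp down to Timp3, at -0.23.

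Srpx2, which encodes a secreted sushi repeat protein, read 1.1 and 4.7 at E14 and 31.1 and 53.4 at E16, and rose by 1.60 ± 0.25 (adjusted p = 0.0377). Plbd1, a phospholipase B-like gene, read 40.3 and 36.0 and then 98.1 and 179.2, and rose by 1.46 ± 0.22 (adjusted p = 0.0377). Myh6, a cardiac myosin heavy chain, read 17.0 and 25.2 and then 120.7 and 148.3, and rose by 2.02 ± 0.28 (adjusted p = 0.0232). Its second probe set stayed at 1.4 and 2.5 and then 1.4 and 1.7 (difference -0.03), so the 2 probe sets disagree, and Myh6 has a close copy in Myh7. Without E14 testis replicate 1 none of these 3 genes passed, with adjusted p of 0.295 for Srpx2, 0.2 for Plbd1 and 0.2 for Myh6, nor did Jag1 (0.215). Fits that left out an E13 testis, E14 ovary or E16 ovary array kept the testis difference and changed only the estimate of its spread. Among the fits that left out 1 array, Myh6 and Jag1 passed only in fits of that kind. Ogn, Srpx2 and Plbd1 lost the threshold without either E14 testis replicate and without E16 testis replicate 2. Susd3 and Vsnl1, named after their values were seen, completed the 17 genes. Susd3 read 60.3 and 48.9 and then 121.6 and 150.6 (1.11, adjusted p = 0.0455). Vsnl1, a calcium sensor gene, passed on its dimmer probe set with 14.7 and 17.7 and then 79.2 and 57.1 (1.37, adjusted p = 0.0329), and on its brightest missed with 1.41 (adjusted p = 0.0589). Susd3 passed in no fit that left out 1 array. The dimmer probe set of Vsnl1 did not pass when any 1 of the 4 arrays compared was left out, and differed by 1.18 to 1.57 there.

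**Figure D2:**
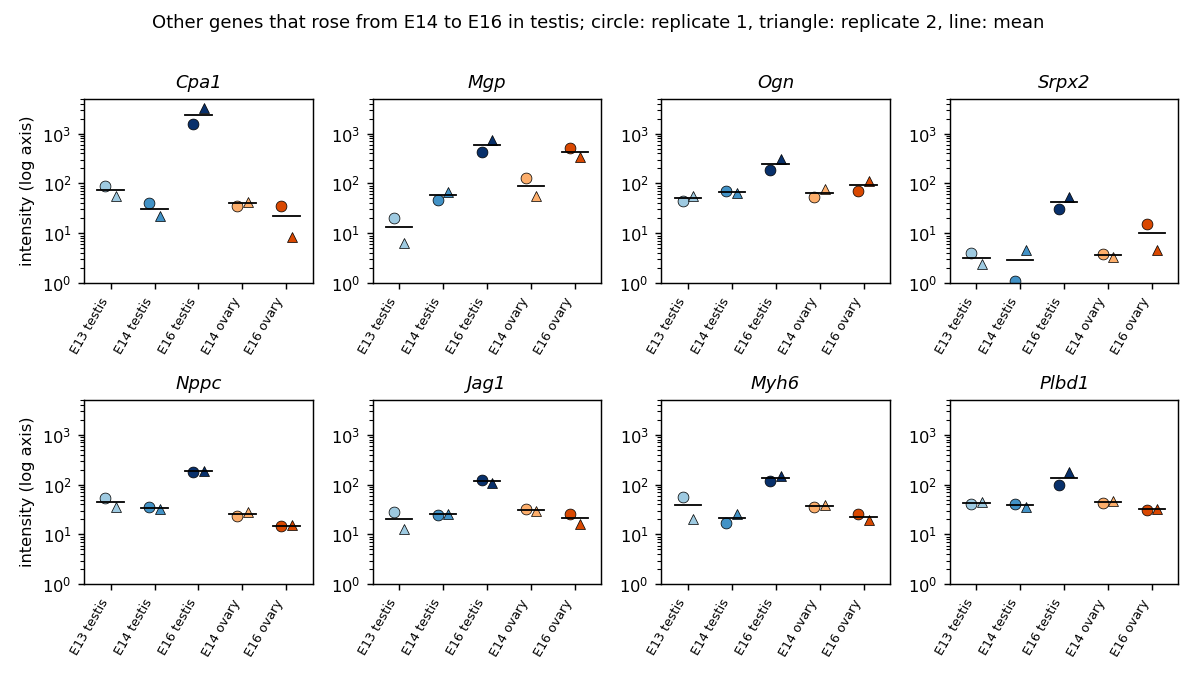
Intensities of 8 further genes that rose from E14 to E16 in testis, drawn as for the steroid genes: log axis, 1 point per array, line at the group mean. In 7 panels both E16 testis arrays lie above every other array drawn. In Mgp the E16 ovary array at 522.9 lies within the E16 testis range, and the one at 344.6 lies below it.

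Whether these rises differed from the same step in the ovary was tested directly, as the testis step minus the ovary step. In ovary, 0 probe sets passed between E14 and E16 by limma (0%), and 975 had an unadjusted p under 0.05 (6.15%). The difference of the steps passed for 7 probe sets (0.0441%), each higher in testis. They belonged to Cyp17a1 (6.54, adjusted p = 0.00529), Cpa1 (6.24, adjusted p = 0.00141), Hsd3b1 (4.90, adjusted p = 0.0116), Cyp11a1 (3.74, adjusted p = 0.00141), Nppc (2.42, adjusted p = 0.00966), Susd3 (1.87) and the second probe set of Star (4.23, adjusted p = 0.00529). Cyp11a1 stayed at 36.4 and 33.5 in E14 ovary and 37.0 and 38.0 in E16 ovary, while Nppc went from 23.9 and 27.6 to 15 and 15.2 there. For Susd3 the ovary arrays went from 82.6 and 75.6 to 34.8 and 45.9.

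For the other genes that rose in testis, the difference of the steps did not pass. It was 4.86 for Insl3 (adjusted p = 0.14), 2.86 for the brightest Star probe set (adjusted p = 0.158), 2.04 for Jag1 (adjusted p = 0.158) and 1.81 for Fdx1 (adjusted p = 0.158). Mgp had 0.85 (adjusted p = 1.0), since it also went from 125.4 and 55.2 in E14 ovary to 522.9 and 344.6 in E16 ovary. At E16 the testis arrays lay above the ovary arrays past the test for 18 of the 19 probe sets, Mgp being the exception, and at E14 for 0 of them. Leaving out 1 array gave 4 to 11 probe sets for the difference of the steps, with 4 without E14 ovary replicate 2, E16 ovary replicate 2 or E16 testis replicate 2 and 11 without E16 testis replicate 1. Without the same 4 arrays of discordant Xist it was 0.

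**Figure D3:**
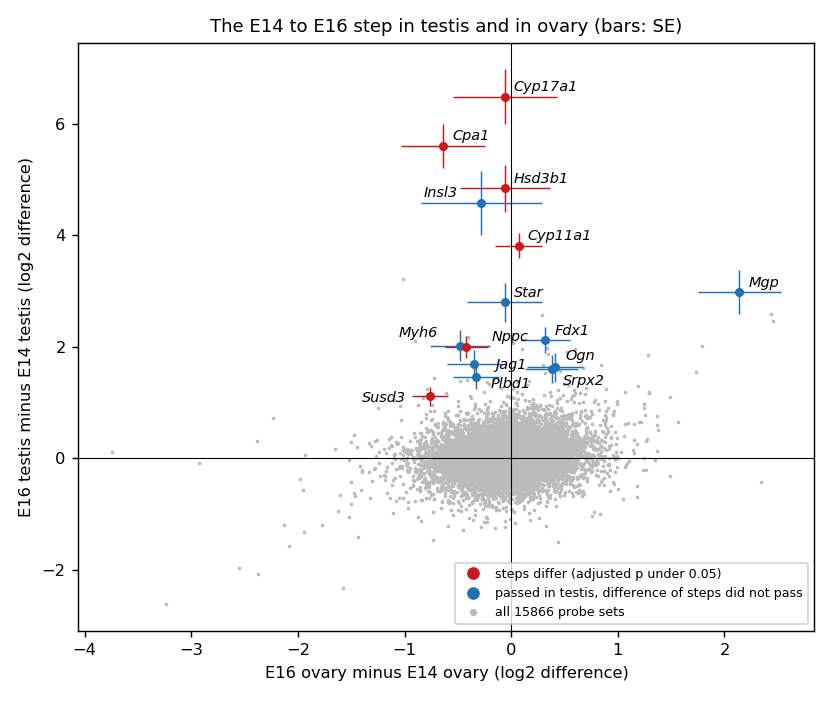
The E14 to E16 difference in testis (y axis) against that in ovary (x axis), both on the log2(intensity + 16) scale, for all 15866 probe sets (grey) and the 15 genes that rose in testis by their brightest probe set, with bars of 1 SE; red marks those whose 2 steps differed. Cyp17a1, Cpa1, Hsd3b1 and Cyp11a1 lie at 3.81 or above in testis, with ovary differences from -0.64 to 0.07, whereas Mgp lies at 2.98 and 2.14.

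The step before, from E13 to E14 in testis, shares the E14 arrays with the step described here, so the values are set side by side with no test of overlap. Of all probe sets 11 passed in that step (0.0693%). Amh read 79.5 and 63.9 at E13, and differed by 2.82 from E13 to E14 and by 0.63 from E14 to E16 (adjusted p = 0.986). Cyp17a1 read 15.5 and 2.3 at E13 and differed by -0.26 and then by 6.48. Insl3 read 37.8 and 18.1 at E13, with -0.09 and then 4.58, and Cyp11a1 39.5 and 41.1, with 0.05 and then 3.81. The Sertoli hormone gene had its larger difference in the earlier step and these steroid genes in the later one, a contrast that was not tested. Mgp, at 20.6 and 6.3 in E13 testis, had 1.35 and then 2.98.

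Sertoli cell genes as a list did not pass in the later step: 0 of 26 measured, with a median of 0.07, while 8 were higher and 1 lower at an unadjusted p under 0.05, beside 3.28% and 1.87% of all probe sets. The median was 0.09 to 0.24 with 1 of the 4 arrays left out, 0.24 without E14 testis replicate 1. Claudin 11 (Cldn11), a tight junction gene of the Sertoli cell barrier, read 134.2 and 158.1 at E14 and 345.0 and 482.9 at E16, a difference of 1.39 (adjusted p = 0.0952). Inha, the inhibin alpha subunit, read 150.1 and 157.1 and then 284.7 and 414.5, a difference of 1.09 (adjusted p = 0.217). In both the ages did not overlap. The X-linked gene Tsx differed by 1.19, Aard by 0.79 and Tesc by 0.77. In the other direction, Wt1, a transcription factor of the early gonad and Sertoli cell, read 811.9 and 691.6 at E14 and 540.9 and 458.2 at E16, a difference of -0.57 (adjusted p = 0.776). Ctsl, the brightest gene of the list, differed by -0.43.

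The smooth muscle list, which marks the peritubular cells around the cords, had 0 of 17 genes past the test and a median of 0.19, with 9 genes higher and 2 lower without overlap (19.7% and 15.1% of all probe sets). Transgelin (Tagln) read 26.6 and 20.9 at E14 and 93.4 and 202.2 at E16, a difference of 1.96 (adjusted p = 0.236). Smooth muscle actin (Acta2) read 211.4 and 287.4 and then 470.0 and 542.5, a difference of 0.99 (adjusted p = 0.514). Contractile genes Myl9, Tpm2, Mylk and Cnn1 differed by 0.75 to 1.04 in the same direction. Myh11, the defining myosin of mature smooth muscle, overlapped between the ages at 62.8 and 39.0 and then 50.1 and 95.2. Pln and Csrp2 lay lower at E16, by -0.62 and -0.66, and the brightest members, Tpm1 and Cald1, differed by 0.04 and 0.15.

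Of 27 measured cell cycle genes 0 passed, 25 had a difference below 0, and the median was -0.27. Pcna, the DNA polymerase clamp, read 1879.4 and 2614.6 at E14 and 1745.3 and 1300.3 at E16 (-0.55), and Cdk4 read 1491.5 and 1606.9 and then 1185.4 and 1376.4 (-0.27). In 13 of the 27 both E16 arrays lay below both E14 arrays, and in 2 above, beside 15.1% and 19.7% of all probe sets. The median ran from -0.36 to -0.14 with 1 of the 4 arrays left out, the latter without E16 testis replicate 2. Among 11 cell cycle inhibitors 0 passed and the median was 0.16, or 0.08 without E14 testis replicate 2 and 0.24 without replicate 1. Cdkn1c, the p57 inhibitor, read 745.1 and 419.4 and then 1622.8 and 1273.0, a difference of 1.34 (adjusted p = 0.219), and Btg1, the brightest, had -0.06. The inhibitors ran from -1.16 to 1.34, with 8 above 0 and 3 below. Cdkn1a differed by -0.75 on its dimmer probe set. Cytosolic ribosomal protein genes had 0 of 40 past the test and a median of -0.13 with no stable direction: it was -0.27 and 0.02 without E14 testis replicates 1 and 2, 0.06 and -0.30 without E16 testis replicates 1 and 2, and -0.01 after quantile normalization.

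Of 23 genes of glycolysis and of the response to low oxygen 0 passed, 15 had a difference below 0 and 8 above, and the median was -0.23. It was -0.07 without E14 testis replicate 1, the array of discordant Xist, and -0.39 without E14 testis replicate 2. The ages did not overlap for 10 genes that were lower and 1 that was higher, beside 15.1% and 19.7% of all probe sets. Lactate dehydrogenase A (Ldha) read 1326.7 and 1553.9 at E14 and 730.6 and 943.7 at E16, a difference of -0.78 (adjusted p = 0.603). Pgk1 had -0.71 and Eno1, the brightest, -0.64. Pfkp, a phosphofructokinase, went the other way with 99.2 and 62.3 and then 139.5 and 183.1 (0.89). Transcription factors of the early gonad had 0 of 16 past the test and a median of -0.18, which ran from -0.46 without E14 testis replicate 2 or E16 testis replicate 1 to -0.08 without E16 testis replicate 2. Emx2 read 260.2 and 180.0 and then 136.6 and 71.6 (-1.01), Cbx2 182.9 and 171.0 and then 139.3 and 81.7 (-0.65), and Gata4 overlapped between the ages (-0.11).

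The meiosis list had 4 measured genes and 0 past the test, with a median of 0.85. Sycp3, a protein of the synaptonemal complex, read 41.0 and 60.6 at E14 and 98.1 and 130.3 at E16 (0.97, adjusted p = 0.508), and Stag3, a meiotic cohesin, 74.0 and 64.5 and then 109.1 and 142.8 (0.73). Sycp2 differed by 0.98, and Sycp1 stayed at 2.0 and 7.2 and then 3.4 and 2.5. The same list had a median of 0.76 in ovary, and its testis median was 0.56 without E16 testis replicate 2. Germ cell genes, 4 measured, had a median of -0.14 that turned to 0.05 without E14 testis replicate 1 and 0.11 without E16 testis replicate 2, with Kit at 56.1 and 40.4 and then 62.4 and 36.2 and Prdm1 at 113.5 and 83.2 and then 110.1 and 53.3.

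The genes with the lowest p among those lower at E16 did not pass either, and are given as values. Nefm, a neurofilament chain, read 298.0 and 266.7 at E14 and 152.8 and 83.1 at E16 (-1.20, adjusted p = 0.382). Mt2A, a metallothionein, read 337.2 and 336.4 and then 131.0 and 206.3 (-0.96, adjusted p = 0.388), and in ovary differed by 0.78. Rbm24, an RNA-binding protein gene, read 70.7 and 77.0 and then 28.4 and 30.7 (-0.98). These 3 genes were lower in both E16 arrays than in either E14 array. So were Sypl2 (-1.14), C1h19orf33 (-0.90), Parvb (-0.78, with adjusted p = 0.273) and Fbxo39 (-0.62). Perp, Vegfa and Lrrc7 were chosen on a dimmer probe set, at -1.14, -0.93 and -1.06. Their brightest probe sets had -0.05, -0.47 and 0.22, so the probe sets of these genes disagree in size or direction.

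Signalling lists held few differences. In the list of 14 for the insulin-like growth factor system Insl3 alone passed, beside 0.12% of all probe sets, and the median was 0.01. Insl3 is the Leydig cell peptide hormone described above, and the other 13 genes of the list did not pass. Igf2 read 2057.2 and 1791.7 at E14 and 1514.3 and 1232.1 at E16 (-0.49), and Igfbp3 259.7 and 192.6 and then 286.6 and 533.0 (0.77). Hedgehog genes, which relay the Sertoli signal to Leydig precursors, had 0 of 7 past the test, with Boc at -0.22 and Smo at -0.05. Platelet-derived growth factor genes had 0 of 5, with the receptor gene Pdgfra at 278.8 and 368.1 and then 452.2 and 513.3 (0.56). Of 26 genes for TGF-beta, activin and BMP signals 0 passed. Amhr2, the receptor for anti-Müllerian hormone, read 346.2 and 253.1 and then 172.6 and 170.7 (-0.73, adjusted p = 0.434). Of 18 Wnt pathway genes 0 passed, with Ctnnb1 at -0.40 and Sfrp1 at 0.03. The secreted Wnt inhibitor Sfrp4 read 47.4 and 43.2 and then 239.8 and 243.1 (2.07, adjusted p = 0.151) on its brightest probe set. On its dimmer probe set the ages overlapped and the difference was 0.49, so the probe sets of Sfrp4 disagree in size. In the fibroblast growth factor list of 14 Dusp6 had -0.60 and Fgfr1 -0.26, and among 14 retinoic acid genes Aldh1a2 had -0.38 and Crabp2 0.07. In both lists 0 genes passed. The dimmer probe set of Fgfr1 differed by 0.50, so its probe sets disagree in direction.

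Markers of other cells that a gonad pool can hold were read at both ages. Summed over 22 macrophage and white blood cell genes, the intensities were 1030 and 1029 at E14 and 1090 and 1154 at E16, with Fcer1g at 0.10 and Lyz2 at -0.05. For 17 mesonephros and kidney genes the sums were 1018 and 671 and then 881 and 899, and Pax8, a defining marker, read 27.8 and 31.7 and then 22.3 and 14.3. In both lists 0 genes passed. The 15 endothelial genes summed to 1523 and 1483 and then 1658 and 1518, with Kdr at 0.11 and Ramp2 at 0.01. The 19 neuron and chromaffin cell genes summed to 1251 and 1123 and then 1104 and 984, with a median of -0.14 and 11 of 19 below 0. They ranged from Nefm, at -1.20, to Uchl1, at 0.56. Neither of these lists had a gene past the test. The 13 red cell genes summed to 15696 and 18920 and then 13176 and 14659, with a median of -0.19, 5 above 0 and 8 below. Members went far both ways: the globin gene Hbb read 837.4 and 1190.7 and then 4396.4 and 7053.2 (2.46), and Hbz, an embryonic globin, 3577.5 and 4465.9 and then 1186.5 and 343.1 (-2.61, adjusted p = 0.931). Hbg1, an embryonic type globin, read 4585.1 and 5478.3 and then 1554.8 and 892.4 (-2.07 ± 1.22), and Hbe1 differed by -0.29, while Alas2 read 188.4 and 215.9 and then 285.6 and 386.3. Of the 13 red cell genes 0 passed. The ovary list, 11 genes of pre-granulosa cells, had a median of -0.03, with Kitlg at -0.46 and Cdkn1b at -0.35 (0.28 on the dimmer probe set of Cdkn1b). Glutathione transferase genes had a median of 0.01, with Mgst1 at -0.25 and Gsta4 at -0.59, and the stress list one of -0.08, with Hspa5 at -0.25. With 1 of the 4 testis arrays left out, these medians changed sign, from -0.30 to 0.11 for the ovary list, -0.11 to 0.14 for glutathione transferases and -0.16 to 0.02 for stress.

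**Figure D4:**
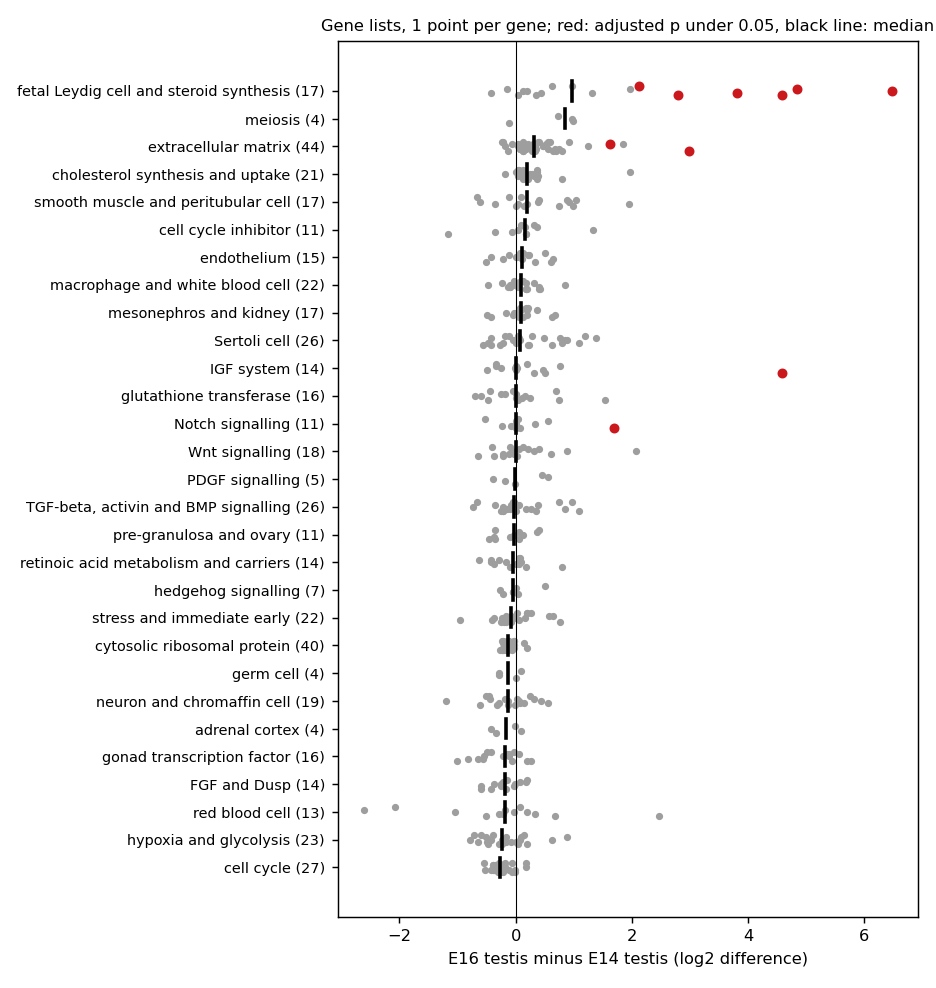
Differences between E16 and E14 testis (log2 scale) for the genes of 29 lists, 1 point per gene by its brightest probe set, lists ordered by their median (black line); the number of measured genes stands beside each name and red marks an adjusted p under 0.05. Red points occur in 4 lists, with 6 of 17 for the fetal Leydig cell, 2 of 44 for extracellular matrix and 1 each in 2 others. These are the Notch list and the insulin-like growth factor list. In the latter the red point is again Insl3, the Leydig cell peptide hormone, and the other 13 genes did not pass.

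The arrays were comparable in the measures at hand. Their medians were 67.4 and 61.8 at E14 and 69.2 and 65.8 at E16, and the 3′ to 5′ ratio for actin, a measure of RNA breakdown, was 1.60 to 1.83 in the 4 arrays. Pools of the same age correlated at r = 0.97 across probe sets at both ages, and 2.26% of probe sets at E14 and 2.11% at E16 differed at least 2-fold between them. E14 replicate 1 and E16 replicate 1 correlated at 0.973, so this pair of different ages was closer than either pair of pools of 1 age. Those 2 arrays share a code in their chip labels, while replicates 2 have other codes. The ages did not overlap for any of the 19 probe sets that rose, so the E16 array had to lie above the E14 array within that code. The gap there was 5.94 for Cyp17a1, 4.78 for Cpa1 and 3.37 for Cyp11a1. Between replicates 2 it was 7.02, 6.41 and 4.26. With the period read from the chip label as a block, 31 probe sets passed, 29 higher and 2 lower, and 18 of the 19 were among them, Susd3 not. Lhcgr, Cldn11, Dcn, Col6a2 and Cdkn1c, which did not pass without the block, passed with it. For Lhcgr, Cldn11 and Col6a2 the brightest probe set alone passed. Perp passed with the block as lower at E16, on its dimmer probe set (-1.14, adjusted p = 0.0371).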

How the data were processed

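Per the labels' protocols, RNA was extracted with Trizol from independent pools of 20 to 40 rat gonads, labelled with biotin and hybridised to single-channel Affymetrix arrays. The deposited values are intensities on a linear scale, 1 per probe set and array. The summarising software and a genome build were both not given in the sources used here. From the values, the authors had scaled each array to 1 level: the mean after trimming 2% of probe sets at each end was 125 on all 14 arrays, and 27 values were 0.

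The 57 Affymetrix control probe sets among 15923 were dropped. A single gene symbol was paired by the platform annotation with 12783, more than 1 with 312 and no symbol with 2771, and 12748 gene identifiers were found in RefSeq's table of GRCr8, which changed 0 symbols. Sox9, Dhh, Dazl, Pax2 and Cdh5 had no probe set of that name and were not analysed here.

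From these values, log2(intensity + 16) was fitted in R 4.3.3 with limma 3.58.1 (functions lmFit and eBayes by default, 7 group means over 14 arrays, 7 residual and 4.16 prior degrees of freedom) with Benjamini-Hochberg adjustment over 15866 probe sets. The step in ovary, the difference of the 2 steps and the E13 to E14 step in testis came from the same fit. The scripts were tested on simulated data.

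Genes were named by rule: the 15 largest rises that passed without overlap of arrays, the 10 falls of lowest p (none passed), up to 3 members per gene list that passed or else its 2 brightest, the 5 largest differences between the steps, and Sry, Amh and Xist. Other members with values were added after these were seen. A gene is given by its brightest probe set. The arrays compared, the 29 gene lists and the rules were chosen with earlier results of these data known.

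Alternatives covered the offset (1 and 64), quantile normalization, a filter on dim probe sets, eBayes settings, smaller fits, leaving out arrays, and blocks for replicate number and for the code or period read from the chip labels, which are not known to be hybridisation batches. Single arrays were left out in turn from E13, E14 and E16 testis and from E14 and E16 ovary. The labels tie replicate numbers to no shared source, and 2 numbers are too few to read a pairing from the data. The correlations of same-numbered deviations ran from -0.05 to 0.53 over 21 pairs of groups, and the 15 without E13 ovary were all above 0.1.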

Additional observations from a re-analysis of the deposited data

Results flagged for a closer look

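The step from E14 to E16 differed between testis and ovary by a test of the difference itself for 7 probe sets, each higher in testis, on the log2(intensity + 16) scale. The testis step minus the ovary step was 6.54 for Cyp17a1, 6.24 for Cpa1, 4.90 for Hsd3b1, 4.23 for the second probe set of Star, 3.74 for Cyp11a1, 2.42 for Nppc and 1.87 for Susd3. For Cpa1, Nppc, Susd3 and that Star probe set the ovary difference was below 0 (-0.64, -0.42, -0.76 and -1.02), so that the gap between the steps was larger than the testis step alone. Groups of 2 arrays are too small for a check of single outlying arrays.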

How the results depend on the processing

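The count of 19 for the testis step became 30 with the chip label code as a random block, 31 with the chip period as a block, 8 in a fit on the 8 testis arrays, 1 in a fit on the 4 arrays, 7 with an offset of 1 and 4 without the 4 arrays of discordant Xist, and ran from 7 to 22 with 1 array left out. It was 13 with an offset of 64, 14 after quantile normalization, 17 with trend and robust eBayes and 20 with the dim filter. All 19 kept their direction in each of these settings (17 of 17 that the dim filter left). With another offset, fewer arrays or the dim filter this was fixed beforehand, since the ages did not overlap for any of the 19. For the ovary step, 0 became 1 with the random block, the period block or an offset of 64, and ran from 0 to 1 with 1 array left out. For the difference of the steps, 7 became 26 with the random block, 2 with an offset of 1 and 0 without the discordant arrays, and ran from 4 to 11. For the E13 to E14 step, 11 became 20 with the random block, 36 with the period block, 5 with the 8 testis arrays, 23 with the dim filter, 7 with an offset of 1 and 0 without the discordant arrays, and ran from 0 to 2. Where a group was left with 1 array, that array was assumed to vary like the others. The cause was not tested for any of these, beyond the smaller number of arrays or probe sets.

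With the replicate number as a block, the testis step had 24 probe sets, including all 19 (with Nefm the only one lower), the ovary step 0, the difference of the steps 8 and the E13 to E14 step 18. It added Cdkn1c (adjusted p = 0.042), Nefm (0.0336), Mt3, Helq and the brightest probe set of Vsnl1. Deviations of same-numbered E14 and E16 testis arrays correlated at 0.22, and 15 of 21 group pairs, all but those with E13 ovary, were above 0.1, but no label says what a shared number stands for, so the block is given here as an alternative and not as a pairing.

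Among named genes and settings, 1040 outcomes kept direction and side of the threshold, 70 lost the threshold, 6 gained it, and 6 that had not passed moved by more than the spread. No difference that had passed changed direction, which the lack of overlap between the ages fixed beforehand where arrays were left out. Xist, at -1.96, became 0.04 without E14 testis replicate 1, Aldoa, at -0.16, became 0.18 there, and without E16 testis replicate 2 Prdm1, at -0.28, became 0.15 and Crabp2, at 0.07, became -0.29. The 2 pools per age and dim E14 signals, with a median E14 mean of 28.4 for the 19 probe sets, limit the precision of the sizes given.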
